A study of Mus musculus with 4 samples.

Results

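Transcripts of 9 platelet and megakaryocyte genes were followed in B16 mouse melanomas: the chemokine genes Pf4 and Ppbp, the integrin genes Itga2b and Itgb3, and the receptor genes Gp9, Gp1bb, Gp6, Clec1b and Treml1. They were taken by symbol from the 25239 gene symbols of 4 raw RNA-seq count tables, and all 9 were found there. They were selected on measured values, the reads, CPM and ratios of Pf4, Ppbp and the receptor genes in these same libraries, so what follows is a description with no test. The question was whether Pf4 and Ppbp stood higher together with the receptor genes that are more restricted to platelets and megakaryocytes, or without them.

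B16 cells, a melanoma line of C57BL/6 origin, had been placed under the skin of both flanks of B6 mice, and treatment started on day 7. Every group, including the control, was given CTX, an agent the labels do not expand, by intraperitoneal injection 1 day before the adoptive cell transfer (ACT), and tumors were collected 12 days after ACT. In the group called TRP-1 T-MV, the mice received intravenous TRP-1 T cells that carried MV, which the file headers write as MYXV (myxoma virus). In the group called MV left tumor, free MV was injected into the left tumors and TRP-1 T cells were given intravenously. The group called remote tumor is the right, uninjected tumors of the mice with MV in the left flank. The group called CTX had PBS injected into left tumors and received neither T cells nor virus. The flank sampled for TRP-1 T-MV and for CTX is not given. The labels state n = 2, but each group has 1 library, and nothing says whether tissue from several mice was pooled. No value therefore has a replicate error, and each difference compares 2 libraries. TRP-1 T-MV and MV left tumor are called the virus-treated tumors below, as virus was given on the T cells or into the tumor.

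Platelets are fragments shed by megakaryocytes of the bone marrow and carry RNA from them. Their surface receptors catch von Willebrand factor, collagen, fibrinogen and podoplanin, while their alpha granules release chemokines, of which the products of Pf4 and Ppbp are among the most abundant. Transcripts of Pf4 have also been described in macrophages and other myeloid cells, so Pf4 alone does not mark platelets, and the glycoprotein receptor genes are the more restricted set.

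The libraries held 14802809 reads assigned to genes in TRP-1 T-MV, 12375526 in MV left tumor, 21790759 in remote tumor and 20811605 in CTX. A floor of 3 reads corresponded to 0.151 to 0.222 CPM (reads scaled to a common library size with TMM factors) across the libraries. The genes Rn45s, Lars2 and Rpph1 together took 1.62% of reads in TRP-1 T-MV and 1.64% in MV left tumor, against 0.164% in remote tumor and 0.141% in CTX. All 10 genes of a melanocyte list had reads in every library, with a summed level of 8432 CPM in TRP-1 T-MV and 8558 CPM in MV left tumor, against 32692.5 CPM in remote tumor and 31791.5 CPM in CTX. The part of these shifts in the values below was not tested. In bulk tumor RNA, fewer cells of a type and less RNA per cell cannot be told apart.

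Pf4 and Ppbp are neighbours on mouse chromosome 5, both on the plus strand. Pf4 spans chr5:90772435-90773383 and Ppbp spans chr5:90768518-90770063 (mm10, GENCODE M21), and the start of Ppbp lies 3.92 kb before that of Pf4. Itga2b (chr11:102453297-102470122, minus strand) and Itgb3 (chr11:104608000-104670476, plus strand) are both on chromosome 11. Promoter sequences from RefSeq (GRCm38.p6, 250 bases before to 50 after the start) were found for 8 of the 9 genes. The sequences of Pf4, Ppbp and Itga2b, which were higher in the virus-treated tumors, are shown beside those of Gp9, which was not, and of Cxcl3, a neutrophil-attracting chemokine gene next to Pf4. Capitals mark matches on either strand, and none of the marked matches overlap. For GATA factors the letters GATAA were searched, which read TTATC on the opposite strand. They are called the GATA letters below, and other forms of the GATA core are not marked or counted. The ETS core was searched as GGAAG, which reads CTTCC on the opposite strand. In Cxcl3 the capitals also mark an NF-kB type site of 10 letters.
Pf4: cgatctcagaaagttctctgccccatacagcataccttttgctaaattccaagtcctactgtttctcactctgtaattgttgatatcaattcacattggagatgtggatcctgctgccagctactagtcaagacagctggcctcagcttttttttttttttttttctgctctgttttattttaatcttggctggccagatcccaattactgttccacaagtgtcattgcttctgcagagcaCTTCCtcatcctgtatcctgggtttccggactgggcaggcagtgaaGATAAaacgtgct
Ppbp: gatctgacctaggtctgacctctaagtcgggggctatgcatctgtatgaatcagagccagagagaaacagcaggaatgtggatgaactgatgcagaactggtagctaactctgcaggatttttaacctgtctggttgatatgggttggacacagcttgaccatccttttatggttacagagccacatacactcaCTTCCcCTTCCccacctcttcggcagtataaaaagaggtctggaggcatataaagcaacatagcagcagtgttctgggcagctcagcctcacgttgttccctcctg
Itga2b: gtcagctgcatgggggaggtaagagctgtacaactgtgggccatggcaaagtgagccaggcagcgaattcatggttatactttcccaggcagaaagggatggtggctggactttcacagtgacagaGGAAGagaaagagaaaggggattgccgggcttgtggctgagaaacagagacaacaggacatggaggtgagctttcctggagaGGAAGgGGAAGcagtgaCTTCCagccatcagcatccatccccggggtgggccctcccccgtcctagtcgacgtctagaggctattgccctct
Gp9: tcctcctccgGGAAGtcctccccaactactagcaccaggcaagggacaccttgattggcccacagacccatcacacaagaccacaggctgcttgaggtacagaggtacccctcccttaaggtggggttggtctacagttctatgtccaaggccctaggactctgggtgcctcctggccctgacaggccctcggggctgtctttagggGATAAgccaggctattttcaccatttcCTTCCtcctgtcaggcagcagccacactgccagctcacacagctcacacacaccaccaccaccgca
Cxcl3: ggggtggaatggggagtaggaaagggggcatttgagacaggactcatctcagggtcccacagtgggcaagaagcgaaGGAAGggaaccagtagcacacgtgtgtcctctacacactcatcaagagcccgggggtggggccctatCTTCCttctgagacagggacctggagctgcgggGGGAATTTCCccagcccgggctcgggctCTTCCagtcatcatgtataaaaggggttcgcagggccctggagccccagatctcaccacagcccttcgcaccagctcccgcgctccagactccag

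The windows are chr5:90772185-90772484 (plus strand) for Pf4, chr5:90768268-90768567 (plus) for Ppbp, chr11:102469834-102470133 (minus) for Itga2b, chr6:87777820-87778119 (plus) for Gp9 and chr5:90785851-90786150 (plus) for Cxcl3. The GATA letters occurred 1 time in the windows of Pf4, Gp9 and Gp6 and 4 times in that of Clec1b, while those of Ppbp, Itga2b, Gp1bb and Treml1 held none. In Pf4 they lay after the start, at position 38 counted from it, and in Gp9 they began 43 bases before it. The ETS letters were in all of the 8 windows except that of Clec1b, with 4 matches in Itga2b. The RefSeq start used for Itga2b lies inside the GENCODE span given above for that gene. Most of its window, with its ETS matches, thus lies within that span and not before it. Among 32851 mouse promoter windows of this length, 25.4% held the GATA letters, 71.4% the ETS letters and 1.63% the NF-kB letters. None of the 8 windows held the NF-kB letters, whereas the chemokine genes Cxcl3, Cxcl1 and Cxcl2 had 1, 2 and 2 matches. A match describes the letters of the window and not a bound site.

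Pf4 encodes platelet factor 4 (CXCL4), a heparin-binding chemokine of the alpha granule. It had 1624 reads in TRP-1 T-MV and 890 in MV left tumor, against 16 in remote tumor and 18 in CTX, which is 101 and 65.9 CPM against 0.804 and 0.939 CPM. The exact 95% Poisson intervals of the levels, which cover counting error only, were 96.0 to 106 CPM in TRP-1 T-MV, 61.6 to 70.3 CPM in MV left tumor, 0.459 to 1.31 CPM in remote tumor and 0.556 to 1.48 CPM in CTX. Pf4 was thus high in TRP-1 T-MV and MV left tumor, while its intervals in remote tumor and CTX overlapped each other near 1 CPM. Over CTX the log2 ratio was 6.75 in TRP-1 T-MV (exact 95% interval 6.08 to 7.51, 107-fold) and 6.13 in MV left tumor (5.46 to 6.89, 70.2-fold).

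Ppbp encodes the precursor of CXCL7, whose processed form attracts neutrophils through CXCR2. Its reads numbered 347 in TRP-1 T-MV and 198 in MV left tumor, against 0 in remote tumor and 0 in CTX, and its level was 21.5 CPM in TRP-1 T-MV and 14.7 CPM in MV left tumor. Where no read was seen, the floor of 3 reads corresponds to 0.151 CPM in remote tumor and 0.156 CPM in CTX. The exact 95% upper limits there were 0.185 and 0.192 CPM. With CTX set to the floor of 3 reads, the bounds of Ppbp over CTX were 138-fold in TRP-1 T-MV and 93.7-fold in MV left tumor. On the log2 scale these bounds are 7.11 and 6.55, their intervals begin at 6.80 and 6.24, and with all libraries thinned to the smallest total they are 6.28 and 5.80. The 2 chemokine genes kept nearly the same proportion in the tumors that had both, at 4.68 Pf4 reads per Ppbp read in TRP-1 T-MV (95% interval 4.17 to 5.27) and 4.49 in MV left tumor (3.85 to 5.27), a relative difference of 1.04 times (0.854 to 1.27). Per kilobase of exon, Pf4 stood at 139.8 CPM in TRP-1 T-MV and 91.3 CPM in MV left tumor, above Ppbp at 19.9 and 13.5 CPM per kilobase.

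**Figure D1:**
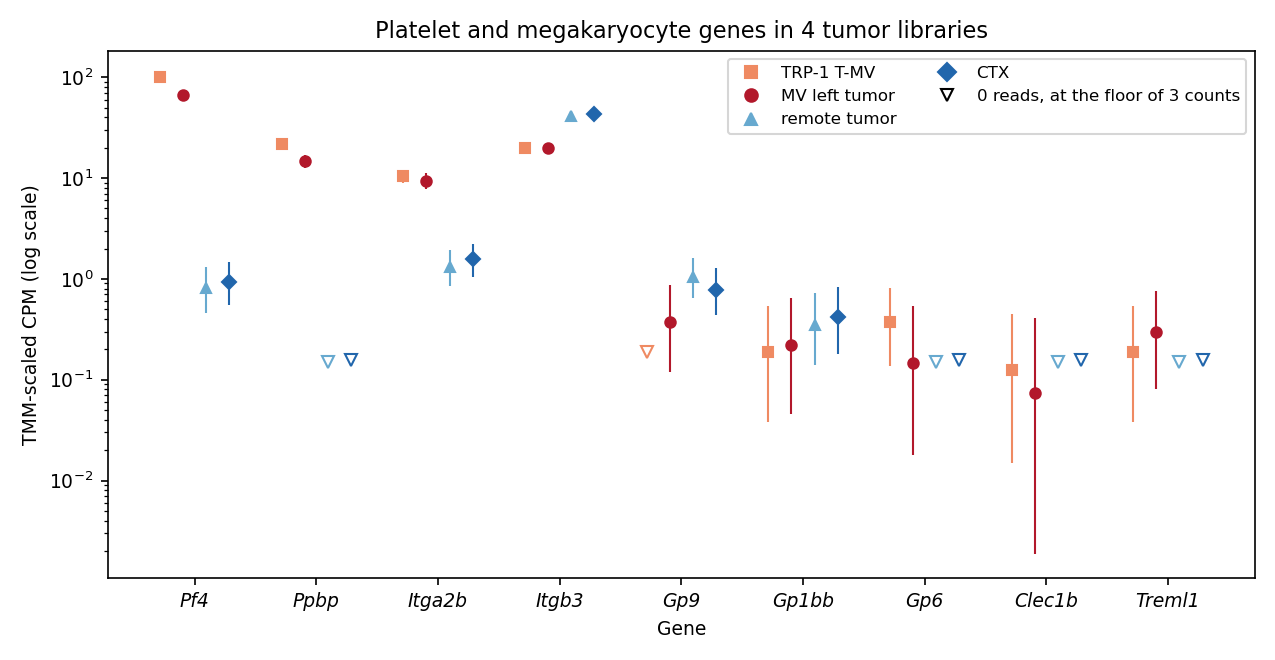
Level of each of the 9 genes (TMM-scaled CPM) in TRP-1 T-MV, MV left tumor, remote tumor and CTX, 1 library each, on a log axis with exact 95% Poisson intervals for counting error; open triangles mark 0 reads, drawn at the floor of 3 counts. Pf4 stands at 101 and 65.9 CPM in TRP-1 T-MV and MV left tumor and below 1 CPM in the others, Itgb3 is lower in the virus-treated tumors, and Gp9, Gp1bb, Gp6, Clec1b and Treml1 stay near or below 1 CPM in every library.

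Itga2b encodes the alpha IIb subunit (CD41), which with the product of Itgb3 forms the platelet fibrinogen receptor. It had 168 reads in TRP-1 T-MV and 127 in MV left tumor, against 26 in remote tumor and 30 in CTX, or 10.4 and 9.40 CPM against 1.31 and 1.56 CPM. It was higher in the same 2 tumors as the chemokine genes, but by less: 2.74 on the log2 scale over CTX in TRP-1 T-MV (2.17 to 3.35, 6.67-fold) and 2.59 in MV left tumor (2.00 to 3.21, 6.01-fold). Set against Itga2b within each library, Pf4 was 16.1 times higher in TRP-1 T-MV than in CTX (exact conditional 95% interval of the odds ratio 8.46 to 31.3) and 11.6 times higher in MV left tumor (6.08 to 22.9). These ratios need no scaling between libraries.

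Itgb3 encodes the beta 3 subunit, which also pairs with the alpha v subunit (Itgav) on endothelial cells, macrophages and tumor cells, melanoma among them, so it is not restricted to platelets. It had 318 reads in TRP-1 T-MV and 268 in MV left tumor, against 817 in remote tumor and 826 in CTX, or 19.7 and 19.8 CPM against 41.0 and 43.1 CPM. It was lower where its platelet partner was higher, with a log2 ratio over CTX of -1.13 in TRP-1 T-MV (-1.32 to -0.94) and -1.12 in MV left tumor (-1.32 to -0.92). That size depends on the scaling: with total counts the log2 ratios were -0.89 and -0.87, and with a housekeeping list -0.77 and -0.76, all short of a 2-fold difference. Reads of Itgb3 per Itga2b read were 1.89 in TRP-1 T-MV and 2.11 in MV left tumor, against 31.4 in remote tumor and 27.5 in CTX. Itgav itself had log2 ratios over CTX of 0.09 in TRP-1 T-MV and 0.22 in MV left tumor, and Itgb3 relative to Itgav was 0.431 times (0.373 to 0.497) and 0.394 times (0.338 to 0.458) that of CTX.

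Gp9 and Gp1bb encode glycoproteins IX and Ib beta, parts of the receptor complex for von Willebrand factor. Gp9 (chr6:87778072-87779768, plus strand) had 0 reads in TRP-1 T-MV and 5 in MV left tumor, against 21 in remote tumor and 15 in CTX. It was thus lowest in the tumors where Pf4 was highest. With 0 reads set to the floor it was 4.20-fold lower in TRP-1 T-MV than in CTX. On the log2 scale that is -2.07 with an interval that ends at -1.59. Under thinning to the smallest total it was -1.65, with an interval that ends at -1.01. In MV left tumor the log2 ratio of Gp9 was -1.08, with an interval (-2.89 to 0.45) that includes no difference. Gp1bb (chr16:18620317-18622403, minus strand) had 3 reads in TRP-1 T-MV and 3 in MV left tumor, against 7 in remote tumor and 8 in CTX, with log2 ratios over CTX of -1.16 (-3.71 to 0.90) and -0.91 (-3.46 to 1.15). Its exons overlap those of Septin5 on the same strand, a gene with 204 to 291 reads per library, so the assignment of these few reads is uncertain. No library gave either gene more than 21 reads.

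Gp6, Clec1b and Treml1 encode the collagen receptor glycoprotein VI, the podoplanin receptor CLEC-2 and the alpha-granule receptor TLT-1. Gp6 (chr7:4363965-4397744, minus strand) had 6 reads in TRP-1 T-MV and 2 in MV left tumor, Clec1b (chr6:129397297-129409335, plus strand) had 2 and 1, and Treml1 (chr17:48359916-48367176, plus strand) had 3 and 4. None of the 3 had a read in remote tumor or CTX. The bound for Gp6 in TRP-1 T-MV over CTX was 1.25 on the log2 scale with an interval that begins at 0.49, and 0.18 with an interval from -0.84 when libraries were thinned to the smallest total, so no call on Gp6 is made. No ratio is given for the pairs in which both libraries had 3 reads or fewer. Together the 3 genes had 11 reads in TRP-1 T-MV and 7 in MV left tumor against 0 in each other library. This sum was formed after the values were seen. With CTX set to the floor, the sum of the 3 genes was 4.37-fold and 3.31-fold higher, with log2 intervals that begin at 1.58 and 1.03. Their few reads thus lay in the virus-treated tumors. Gp9 and Gp1bb, a sum also formed after the values were seen, had 3 and 8 reads there against 28 in remote tumor and 23 in CTX. In the annotation Clec1b also overlaps exons of Clec9a, which had 1 to 9 reads per library.

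The 5 receptor genes other than Itga2b therefore gave 14 reads in TRP-1 T-MV and 15 in MV left tumor, against 28 in remote tumor and 23 in CTX. As a summed level this was 0.869 and 1.11 CPM against 1.41 and 1.20 CPM, and the log2 ratio over CTX was -0.46 in TRP-1 T-MV (-1.54 to 0.56) and -0.11 in MV left tumor (-1.15 to 0.89). This sum joins genes that differed in direction, so it does not describe each of them.

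Compared per kilobase of exon, the order of levels in TRP-1 T-MV was Pf4 (139.8 CPM per kilobase), Ppbp (19.9), Itgb3 (3.35), Itga2b (1.91), Treml1 (0.133), Gp1bb (0.0892), Gp6 (0.0631), Clec1b (0.0243) and Gp9 (0). In CTX the order was Itgb3 (7.30), Pf4 (1.30), Gp9 (0.888), Itga2b (0.287) and Gp1bb (0.1999), with the other 4 genes at 0. Pf4 and Ppbp thus stood above the integrin genes in the virus-treated tumor and below Itgb3 in the control. The last 5 genes in TRP-1 T-MV had 6 reads or fewer each and overlap within counting error, as do Pf4 with Gp9 and Itga2b with Gp1bb in CTX.

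Read together, Pf4 and Ppbp gave 10.8 reads per read of the 6 more restricted receptor genes in TRP-1 T-MV (exact 95% interval 9.30 to 12.7). This proportion was 7.66 in MV left tumor (6.43 to 9.19), against 0.296 in remote tumor (0.158 to 0.525) and 0.340 in CTX (0.187 to 0.589). As a sum the 6 receptor genes had 182 and 142 reads, against 54 in remote tumor and 53 in CTX, which is 4.09-fold and 3.80-fold higher than CTX after scaling, and Itga2b gave 168 and 127 of those reads. The chemokine reads outnumbered the receptor reads in the virus-treated tumors and were the fewer in the other pair. Relative to CTX the proportion was 31.8 times higher in TRP-1 T-MV (17.9 to 58.9) and 22.5 times higher in MV left tumor (12.5 to 42.0), and 0.873 times in remote tumor (0.373 to 2.03). Without Itga2b the proportions were 141, 72.5, 0.571 and 0.783 in TRP-1 T-MV, MV left tumor, remote tumor and CTX. Pf4 and Ppbp were thus higher along with Itga2b, which was higher by a smaller factor. The other 5 receptor genes were grouped by direction after the values were seen, so the grouping is no test of a split. The few reads of Gp6, Clec1b and Treml1 lay in the virus-treated tumors. Gp9 and Gp1bb as a sum had log2 ratios over CTX of -2.69 (-5.07 to -0.96) in TRP-1 T-MV and -1.02 (-2.39 to 0.19) in MV left tumor. Gp1ba, which is not one of the 9 genes and is described below, was called higher in both. The 9 genes did not move as 1 set, and which cells gave the reads was not tested.

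**Figure D2:**
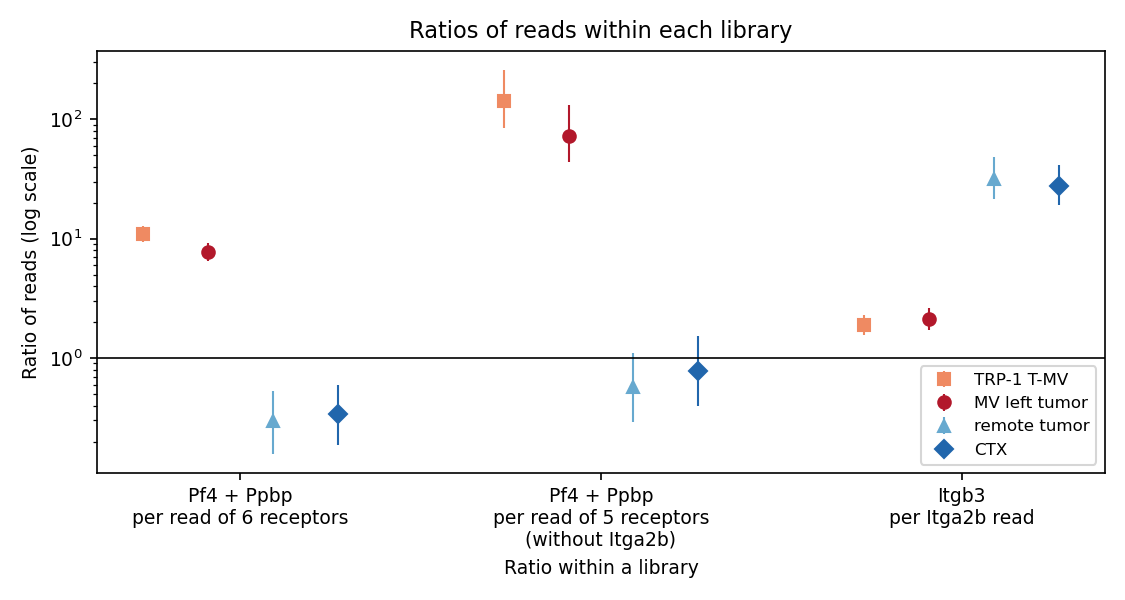
Ratios of raw reads within each library on a log axis, with exact 95% intervals for counting error, in TRP-1 T-MV, MV left tumor, remote tumor and CTX. Pf4 and Ppbp reads per receptor read are 10.8 and 7.66 in the first 2 libraries and 0.296 and 0.340 in the others.

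Of the 9 genes, 5 had a mean of at least 10 reads over the libraries (Pf4, Ppbp, Itga2b, Itgb3 and Gp9), Ppbp through the virus-treated tumors alone. A gene was called when it differed by 2-fold or more with an exact 95% interval clear of 1. Over CTX, 3 of these 5 were called higher (Pf4, Ppbp and Itga2b) and 2 lower (Itgb3 and Gp9) in TRP-1 T-MV, beside 18.5% higher and 11.7% lower among all 13357 genes compared. In MV left tumor 3 were called higher and 1 (Itgb3) lower, beside 18.1% and 11.1%. Because the genes were picked with these contrasts in view, nothing is read from the counts. The median log2 ratio of the 5 genes was 2.74 in TRP-1 T-MV, with Ppbp and Gp9 at their bounds. It was 2.59 in MV left tumor, with only Ppbp at its bound. The medians over all genes were -0.07 and -0.05. TRP-1 T-MV and MV left tumor share the CTX library in these comparisons.

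**Figure D3:**
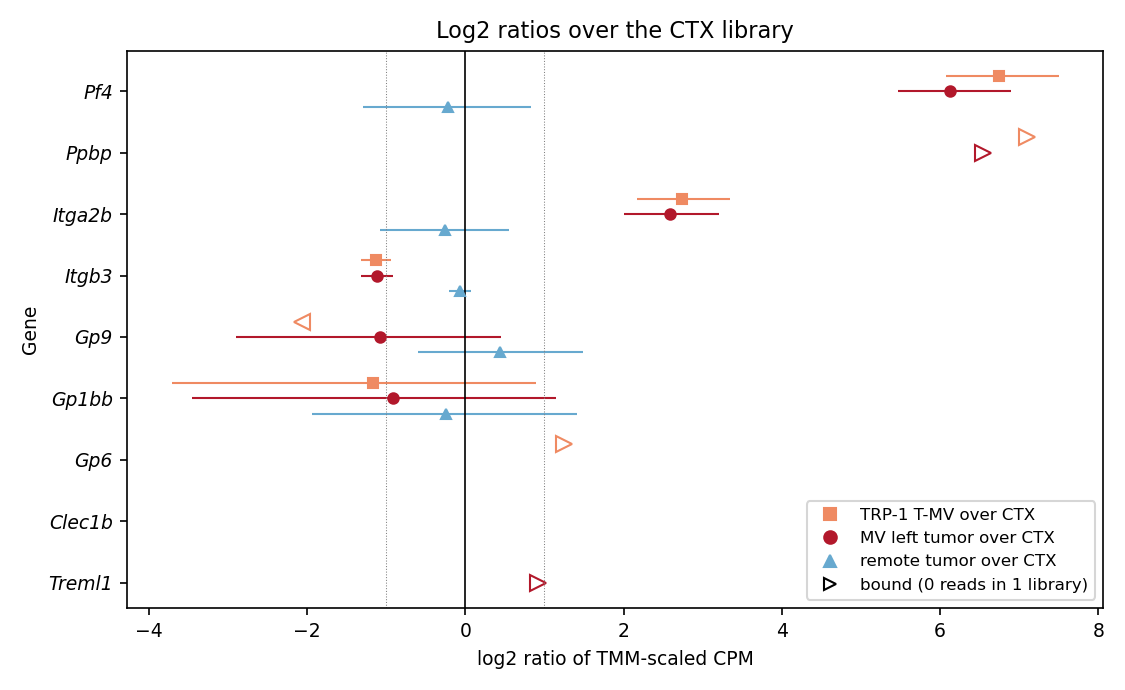
Log2 ratios over CTX of the 9 genes in TRP-1 T-MV, MV left tumor and remote tumor, with exact 95% intervals for counting error; bounds mark genes with 0 reads in 1 library, and Clec1b has no ratio. Pf4 (6.75 and 6.13) and Ppbp stand far above 0 in the first 2 comparisons, Itga2b less so (2.74 and 2.59), and Itgb3 (-1.13 and -1.12) below.

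In remote tumor, the uninjected flank of mice with virus in the other flank, no gene of the 5 was called against CTX in either direction, beside 0.457% higher and 0.247% lower of all genes. The log2 ratios were -0.22 for Pf4 (-1.29 to 0.83), -0.26 for Itga2b (-1.08 to 0.55), -0.07 for Itgb3 (-0.21 to 0.07) and 0.43 for Gp9 (-0.59 to 1.49), while Ppbp had 0 reads in both libraries. The interval of Pf4 reaches to less than a 2-fold difference upwards, and the ratio seen in the injected flank lies outside it. Against remote tumor itself, Pf4 was higher by 6.97 on the log2 scale in TRP-1 T-MV and by 6.36 in MV left tumor, and Itga2b by 3.00 and 2.85. Gp9 was lower in both. In TRP-1 T-MV it was 5.66-fold lower with 0 reads set to the floor (log2 ratio of -2.50, interval ending at -2.08). In MV left tumor its log2 ratio was -1.51 (-3.27 to -0.07). With Itgb3 this makes 3 genes called higher and 2 lower in each, beside 18.8% and 12.1% of all genes in TRP-1 T-MV and 18.6% and 11.7% in MV left tumor. The Itgb3 calls over remote tumor ended under upper-quartile factors, total counts and the housekeeping list, and the Gp9 call in MV left tumor ended under total counts, the housekeeping list and thinning.

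Between the virus-treated tumors, TRP-1 T-MV had more Pf4 than MV left tumor by 0.61 on the log2 scale (0.50 to 0.73) and more Ppbp by 0.56 (0.30 to 0.82). These intervals exclude equality by counting error, but both ratios are under 2-fold and without replicates the spread between tumors is unknown. Itga2b differed by 0.15 (-0.19 to 0.49) and Itgb3 by -0.01 (-0.25 to 0.23). No gene of the 5 was called, beside 0.562% higher and 0.217% lower of all genes.

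Pf4 and Ppbp lie in a cluster of CXC chemokine genes, most of whose products draw neutrophils through CXCR2. Measured from the start of Pf4, Cxcl5 lies 13.1 kb before it, Cxcl3 13.7 kb, Cxcl15 22.1 kb, Cxcl1 119 kb and Cxcl2 131 kb after it. Cxcl5 had 215 reads in TRP-1 T-MV and 109 in MV left tumor, against 0 in remote tumor and CTX. With CTX set to the floor of 3 reads it was 85.3-fold and 51.6-fold higher. Cxcl3 had 5068 and 2550 reads, against 17 in remote tumor and 11 in CTX, with log2 ratios over CTX of 9.10 and 8.36. Cxcl2 had 1683 and 923 reads, against 104 and 16, and Cxcl1 had 344 and 208, against 36 and 19. The neighbours of Pf4 and Ppbp were thus high in the same tumors, apart from Cxcl15 with at most 0.124 CPM. Pf4 was lower relative to Cxcl3 than in CTX, 0.196 times in TRP-1 T-MV (0.0834 to 0.439) and 0.213 times in MV left tumor (0.0907 to 0.479). Cxcl2 was also higher in remote tumor than in CTX, by 2.65 on the log2 scale, where Pf4 and Ppbp were not.

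**Figure D4:**
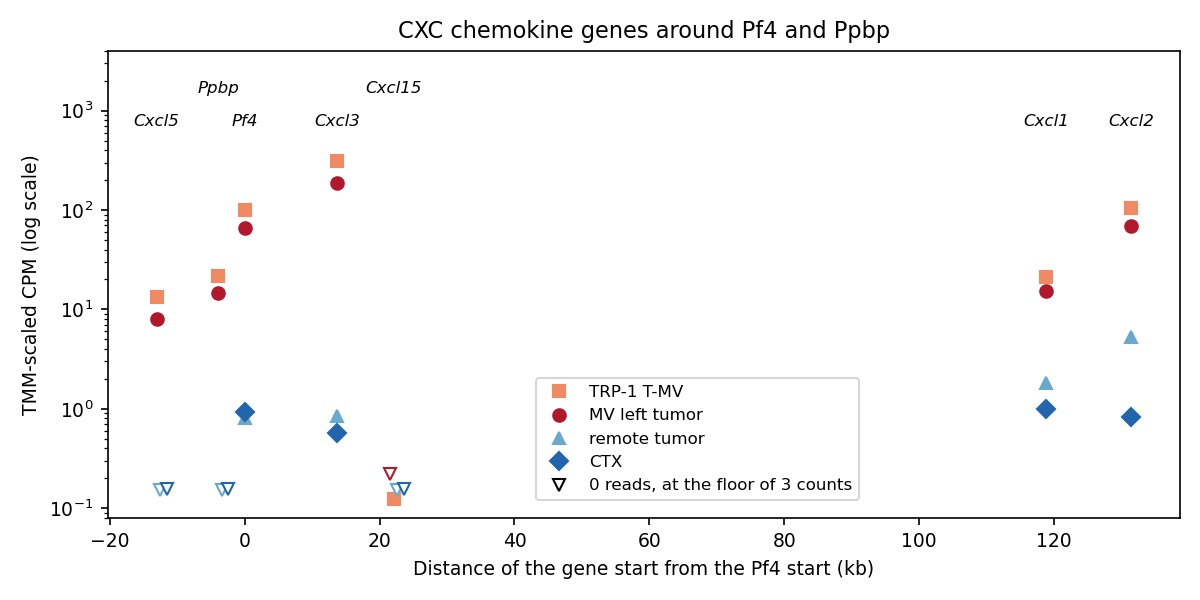
Level (TMM-scaled CPM) of the CXC chemokine genes around Pf4, placed by the distance of their starts from that of Pf4 in kb, in TRP-1 T-MV, MV left tumor, remote tumor and CTX, on a log axis with open triangles for 0 reads at the floor of 3 counts. Cxcl5, Ppbp, Pf4, Cxcl3, Cxcl1 and Cxcl2 are each highest in TRP-1 T-MV, then MV left tumor.

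In the whole list of other CXC chemokine genes, 9 had enough reads, 2 of them with under 10 reads in both remote tumor and CTX. Those 2 had enough reads through the virus-treated tumors and so had to differ. Over CTX, 7 of the 9 were called higher in TRP-1 T-MV and 6 in MV left tumor, and none lower, with median log2 ratios of 4.43 and 3.96. Beside this and the lists that follow, 18.5% of all genes were called higher and 11.7% lower in TRP-1 T-MV over CTX, and 18.1% and 11.1% in MV left tumor. Among genes for ligands and receptors that meet the products of the 9 genes, 16 of 18 had enough reads, of which 4 were called higher and 1 lower in TRP-1 T-MV and 4 higher in MV left tumor. Those highest were Itgam (log2 ratios of 6.99 in TRP-1 T-MV and 6.41 in MV left tumor), a subunit of the Mac-1 integrin that binds glycoprotein Ib alpha, and Selplg (6.34 and 5.90), the ligand of P-selectin. Cxcr2, the receptor for processed Ppbp, had 7 and 11 reads, against 1 in remote tumor and 0 in CTX. The list's median log2 ratio was 0.46 in TRP-1 T-MV and 0.22 in MV left tumor, and its share of genes called lay near that of all genes.

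Other genes linked to platelets and megakaryocytes, some of which other blood cells also use, were grouped in lists by role. Beside them, the all-gene median was -0.07 in TRP-1 T-MV, where 18.5% of all genes were called higher and 11.7% lower over CTX. It was -0.05 in MV left tumor, where 18.1% and 11.1% were. Genes that have few reads in remote tumor and CTX passed the minimum through the virus-treated tumors and so had to differ, which was so for 5 of 19 receptor, 1 of 19 cargo, 2 of 27 signalling and 1 of 18 transcription factor genes with under 10 reads in both. Of 27 further surface receptor genes, 19 had enough reads. Over CTX, 9 of them were called higher and 2 lower in TRP-1 T-MV, and 8 higher and 1 lower in MV left tumor, with medians of 0.58 and 0.31. The highest were Adra2a, an adrenergic receptor gene with 384 and 177 reads against 3 in remote tumor and 1 in CTX (log2 ratios over CTX of 8.84, interval 6.35 to 14.1, and 7.97, interval 5.48 to 13.3), and Cd36 (5.87 and 5.26), a scavenger receptor of platelets that macrophages also carry. The lowest were Pear1 (-1.44 and -1.42), an adhesion-linked receptor, and Itga6 (-1.04 and -0.90), an integrin subunit for laminin.

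Those of this list most tied to the lineage were scarce. F2rl2, also of this list, had 39 reads in TRP-1 T-MV and 30 in MV left tumor, against 0 in remote tumor and 2 in CTX. Gp1ba, which encodes the von Willebrand factor binding chain, had 50 reads in TRP-1 T-MV and 33 in MV left tumor, against 17 in remote tumor and 18 in CTX, with log2 ratios over CTX of 1.73 (0.92 to 2.59) and 1.38 (0.51 to 2.29). Unlike its partners Gp9 and Gp1bb it was thus called higher in both. Pf4 still was 32.2 times (14.9 to 70.1) and 26.7 times (11.9 to 60.1) higher relative to Gp1ba than in CTX. Gp5, the remaining chain of that complex, had 3 and 5 reads against 0 in remote tumor and 2 in CTX. P2ry12, an ADP receptor gene that microglia and other macrophages also use, had 20 and 9 reads against 1 and 1, with log2 ratios of 4.57 (1.93 to 9.95) and 3.67 (0.82 to 9.13), and it overlaps Med12l on the opposite strand.

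Of the granule cargo genes, 19 of 22 had enough reads. Beside 18.5% higher and 11.7% lower of all genes, in TRP-1 T-MV 11 were called higher and 1 lower over CTX, and in MV left tumor 10 higher and 1 lower, with medians of 1.74 and 1.31. Thbs1, which encodes thrombospondin 1 and is made by many cell types, was highest with Ccl5, a T cell and platelet chemokine gene. Thbs1 had log2 ratios of 6.49 in TRP-1 T-MV and 5.85 in MV left tumor, and Ccl5 of 6.52 and 5.84. Sparc, a matrix protein gene, was lowest at -1.46 and -1.43. In the list of signalling and cytoskeletal genes, 27 of 34 had enough reads, with 13 called higher and 2 lower in TRP-1 T-MV, 12 higher and 2 lower in MV left tumor, and medians of 0.86 and 0.73. Fermt3, the kindlin that activates integrins in blood cells, had ratios of 5.20 and 4.99, while Mylk, the myosin light chain kinase gene, had -1.62 and -1.79. Treml2, a receptor gene related to Treml1 but not restricted to platelets, had 444 and 392 reads against 4 in remote tumor and 2 in CTX. Its log2 ratios were 8.05 (6.18 to 11.1) and 8.12 (6.26 to 11.2). Tubb1, the beta tubulin gene of megakaryocytes, had 4 and 6 reads against 0 in remote tumor and 2 in CTX.

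Of the genes for megakaryocyte transcription factors, 18 of 21 had enough reads, and 7 were called higher in TRP-1 T-MV and 6 in MV left tumor, beside 18.5% and 18.1% of all genes, with medians of 0.68 and 0.54. None was called lower, although 1 was in MV left tumor when TMM factors were computed without ribosomal protein genes. Fli1, an ETS factor gene also used by endothelial and other blood cells, was highest at 5.01 and 4.99, followed by Lyl1 (71 and 47 reads, against 8 in remote tumor and 3 in CTX). Gata1, the GATA factor gene of megakaryocytes and red cells, had 5 and 5 reads against 0 and 0, and Nfe2 had 12 and 6 against 1 and 6. Gp5, Tubb1, Gata1 and Nfe2 had 12 reads or fewer in every library.

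**Figure D5:**
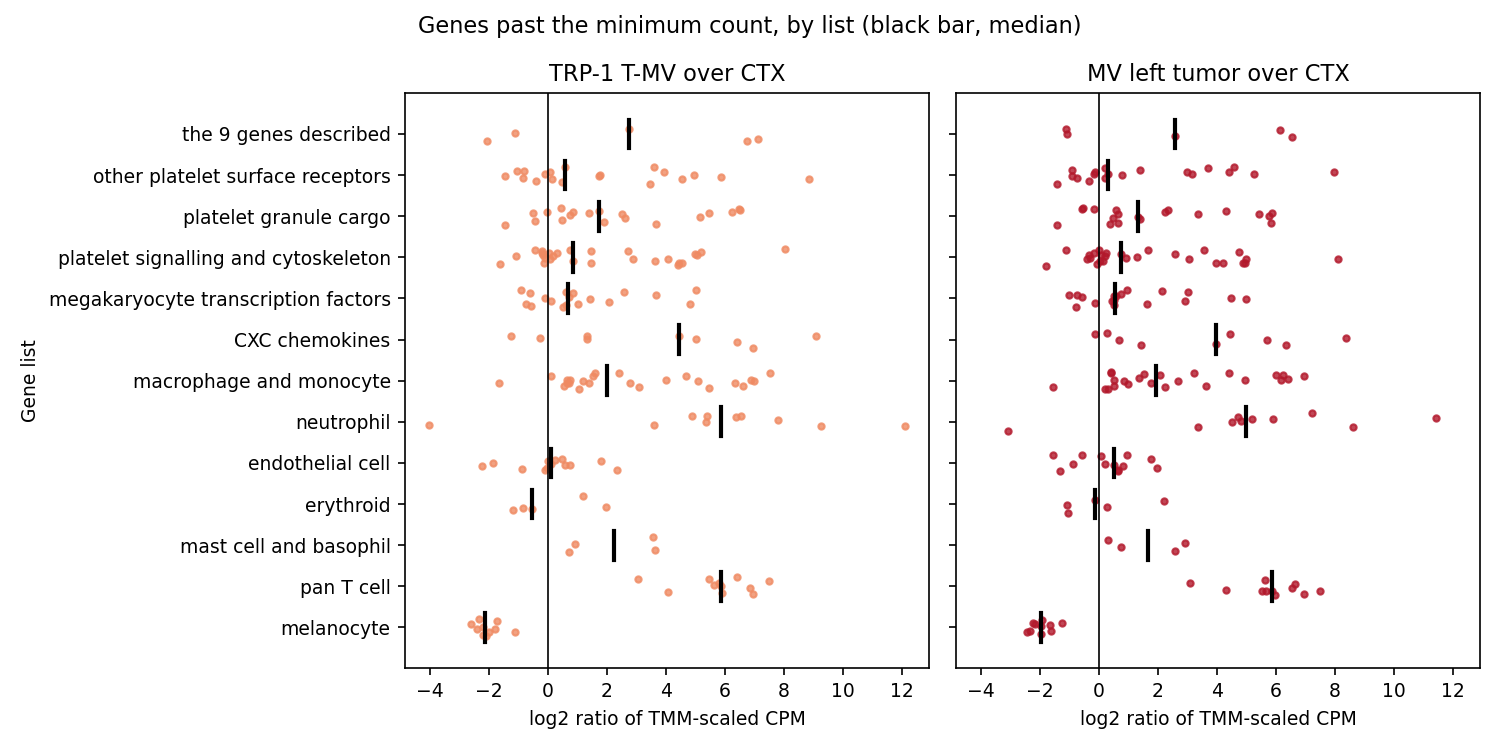
Log2 ratios over CTX in TRP-1 T-MV (left) and MV left tumor (right) for each gene with a mean of at least 10 reads (points), by list, with the list's median (black bar) and with genes at 0 reads in 1 library at their bounds. The neutrophil (5.88 and 4.99) and T cell (5.85 and 5.87) medians are highest, the melanocyte median lowest (-2.14 and -1.97), and the platelet lists lie between them.

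Markers of other cell types moved in the same tumors as Pf4, and their part in the result was not tested. Of 26 macrophage and monocyte genes, 24 had enough reads, 2 of these with under 10 reads in both remote tumor and CTX, which had to differ. Over CTX, 17 were called higher and 1 lower in TRP-1 T-MV, and 15 higher and 1 lower in MV left tumor. The list's summed level was 1548 and 1176 CPM against 876 CPM in remote tumor and 845 CPM in CTX. The list's median log2 ratios were 2.01 and 1.92, and the sum is weighted by Apoe, the gene called lower (-1.67 and -1.55), which had 12688 of the list's 16214 reads in CTX. Adgre1 (F4/80) had 2797 and 1544 reads, against 75 and 34, and Cd163 was at 0 reads in MV left tumor and remote tumor, whereas Mrc1 (log2 ratios of 0.74 and 0.52) and C1qa (0.53 and 0.21) were not called. Pf4 reads per Adgre1 read were 0.581 in TRP-1 T-MV and 0.576 in MV left tumor, against 0.213 in remote tumor and 0.529 in CTX. Relative to CTX this proportion was 1.10 times (0.600 to 2.07) in TRP-1 T-MV, 1.09 times (0.594 to 2.06) in MV left tumor and 0.406 times (0.170 to 0.955) in remote tumor. Adgre1 is 1 gene of a list whose log2 ratios in TRP-1 T-MV ran from -1.67 (Apoe) to 7.53 (Chil3), so other members stand in other proportions to Pf4. In remote tumor Adgre1 was called higher than CTX by 1.09 on the log2 scale, the only 1 of the 24 genes called. No gene of the other platelet lists was called there in either direction. Beside this, 0.457% of all genes were called higher and 0.247% lower, so nothing is read from the difference between the lists.

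The neutrophil list had 10 of 14 genes past the minimum, of which 6 had under 10 reads in both remote tumor and CTX and so had to differ. It had 9 called higher and 1 lower in both tumors over CTX, medians of 5.88 and 4.99, and a summed level of 700.4 and 454 CPM against 10.3 CPM in remote tumor and 7.35 CPM in CTX. S100a8, Retnlg, Ltf and Ngp, granule or secreted protein genes of neutrophils, were at 0 reads in both remote tumor and CTX. The gene called lower was G0s2, with log2 ratios over CTX of -4.03 in TRP-1 T-MV and -3.09 in MV left tumor. All 11 pan T cell genes were called higher in both, 7 of them with under 10 reads in both remote tumor and CTX, with sums of 288 and 291 CPM against 10.2 and 10.3 CPM. The endothelial list had 2 called higher and 2 lower in each, with sums of 338 and 337 CPM against 616 and 588 CPM but median log2 ratios of 0.12 and 0.50, and under the housekeeping list 5 were called higher and 1 lower in MV left tumor. The highest were Kdr (log2 ratios of 2.34 in TRP-1 T-MV and 1.96 in MV left tumor) and Pecam1 (1.80 and 1.75), a gene that platelets also use. The lowest were Ptprb (-2.23 and -1.30) and Egfl7 (-1.86 and -1.56). Of the 12 mast cell and basophil genes 4 had enough reads, 1 of these with 0 reads in both remote tumor and CTX, which had to differ. In each tumor 2 were called higher over CTX, and the list's sums were 43.8 and 36.5 CPM against 21.2 and 20.4 CPM. Cpa3 had 31 and 16 reads against 0 and 0. Tpsab1 had 0 reads in every library.

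Red cells arise beside megakaryocytes in the marrow and travel with platelets in blood, and their genes were read as a further list. Of 15 erythroid genes 5 had enough reads, with 2 called higher and 1 lower in TRP-1 T-MV and 1 higher and 2 lower in MV left tumor. Beside this, 18.5% of all genes were called higher and 11.7% lower in TRP-1 T-MV, and 18.1% and 11.1% in MV left tumor. The highest were Sptb (log2 ratios of 1.97 in TRP-1 T-MV and 2.22 in MV left tumor) and Klf1 (1.20 and 0.26). The lowest were Tfrc (-1.19 and -1.04) and Rhd (-0.86 and -1.07), so the median of the 5 joins genes that differed in direction. The median log2 ratio of the 5 genes was -0.55 in TRP-1 T-MV and -0.12 in MV left tumor. The second becomes 0.12 with total counts and 0.24 with the housekeeping list. Hba-a1, Hba-a2, Hbb-bs, Hbb-bt and Rhag had 0 reads in all 4 libraries; the globin genes have near-identical copies, so reads that map to several places may not have been counted.

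The genes nearest in pattern over the 4 libraries were found for 4 of the 9 genes, by the root mean square difference of centred log2(CPM + 0.5). For Pf4 these were Inhba (0.0642), an activin subunit gene, then Chil1, Pla2g7, Tnfrsf9 and Srgn (0.131), the last encoding the proteoglycan of granules in platelets and other blood cells. Inhba had 836 reads in TRP-1 T-MV and 499 in MV left tumor, against 3 in remote tumor and 5 in CTX. For Ppbp they were Prex1 (0.0466), Cd33, Slc6a12, H2-Q6 and F10 (0.0888), where reads of H2-Q6 can belong to its near-identical paralogs. For Itga2b they were Dglucy (0.0289), Ctsw, Sla2, Tnfsf10 and F2rl2 (0.0476), and for Itgb3 they included Chek2 (0.0147), Cd44, Pcdh7 and Kif3a (0.0180). None of the 9 genes was among the nearest of another. Ppbp had 0 reads in remote tumor and CTX, so the added 0.5 CPM sets its level there. Its nearest genes and its distance to Pf4 depend on that choice. Likeness over 4 libraries, 1 per group, is a weak measure.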

How the data were processed

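The authors deposited raw counts of reads per gene symbol, 1 table for each of 4 libraries. HISAT2, featureCounts and mm10 are named in the submitters' processing notes; versions are not given in the sources used, and neither are the annotation, the strandedness or the handling of multimapping reads. The 9 genes and all gene lists were chosen with earlier results of these data known.

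Counts were scaled by TMM over the 4 libraries (edgeR 4.0.16, R 4.3.3; no edgeR test was possible) to CPM, and the 13357 genes with a mean count of at least 10 were compared. Library totals ran from 12375526 to 21790759. Each log2 ratio has an exact conditional binomial (Clopper-Pearson) 95% interval, which covers counting error only. A library with 0 reads was set to a floor of 3 counts and the ratio given as a bound, and pairs with 3 reads or fewer in both have no ratio. Ratios relative to another gene are conditional odds ratios. A call needs a ratio of at least 2 and an interval that excludes 1. With 1 library per group no p-value was computed. The interval and calling code was tested on simulated data.

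Named were all 9 genes, of each list up to 2 highest and 2 lowest genes plus defining lineage genes, and the 5 genes nearest in pattern. A gene that this rule named for Itgb3, and a lineage gene, are not reported here. Other names (S100a8, Retnlg, Ltf, Ngp, Cd163, Apoe, Chil3, Tpsab1, Itgav, Cxcl1, Cxcl2 and Cxcl15) were added after the values were seen. Exon lengths are unions of GENCODE M21 exons, in which all 9 genes were found, and promoters are from RefSeq GRCm38.p6. Alternatives were other scalings (DESeq2 1.42.0 size factors, upper quartile, total counts, a housekeeping list), stricter calls and thinning of reads. Calculations used Python 3.11.15, scipy 1.17.1, numpy 2.4.6, pandas 2.3.3 and matplotlib 3.10.9.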

Additional observations from a re-analysis of the deposited data

How the results depend on the processing

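No called ratio of the 9 genes changed sign under the alternatives run, while the uncalled ratios of Pf4, Itga2b and Gp1bb in remote tumor over CTX became 0.01 and that of Itgb3 0.05 under thinning. Pf4 over CTX ranged from 6.60 to 7.11 on the log2 scale in TRP-1 T-MV and from 5.97 to 6.49 in MV left tumor. Scaling by total counts added 0.24 to every log2 ratio of TRP-1 T-MV and MV left tumor over CTX, and scaling by a housekeeping list added 0.36, which took the median of all genes to 0.29 and 0.31. The housekeeping list had medians of -0.29 and -0.27 under TMM, with 3 genes called lower in each. The number of the 9 genes called in MV left tumor over remote tumor was 5, and 3 under each of total counts, the housekeeping list, a ratio of at least 4 and an interval excluding 2. Chemokine reads per receptor read in TRP-1 T-MV, MV left tumor, remote tumor and CTX were 141, 72.5, 0.571 and 0.783 without Itga2b, and 3.94, 2.65, 0.0184 and 0.0205 with Itgb3 added. With Pf4 alone they were 8.92 in TRP-1 T-MV and 6.27 in MV left tumor. With Ppbp alone they were 1.91, 1.39, 0 and 0.

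Over remote tumor, Itgb3 in TRP-1 T-MV and MV left tumor was -0.80 and -0.79 under total counts and -0.64 and -0.63 under the housekeeping list, and Gp9 in MV left tumor was -1.25, -1.10 and -1.40 under total counts, the housekeeping list and thinning, none called. The 5 receptor genes other than Itga2b had 14 to 28 reads per library, and this depth limits what can be said of each. No paired analysis was possible because there was 1 library in each group. Leaving out a replicate was not run for the same reason.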
